A study of Mus musculus with 12 samples.

Results

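Livers of vehicle-treated mice on a high-fat diet (HFD) were compared between the evening and the morning, over all genes with measurable RNA. Zeitgeber time (ZT) counts hours from lights on, so that ZT0 is the end and ZT12 the start of the active phase of a mouse. The 6 libraries, 3 at ZT0 and 3 at ZT12, each from the liver of a different mouse, were taken from a series of 12 by their labels of vehicle treatment and time of harvest. All were male mice of C57BL/6J background, 8 weeks old per the design text, fed for 6 weeks with a diet in which fat gave 60% of the energy. They were kept in 12 h of light and 12 h of dark with food ad libitum. In the last 2 weeks each received 200 µl of drinking water a day, the vehicle, by oral gavage at ZT11. The other 6 mice had the same diet and times of harvest and were given Libramed, a gel-forming fiber product, in place of the vehicle. Because the gavage fell 1 h before ZT12, time of day, recent feeding and time since the gavage cannot be told apart here. A pair of time points also gives a difference between evening and morning and neither a phase nor an amplitude, and no mice on a normal diet were sequenced in this series.

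The circadian clock of the liver is a loop in which the activators BMAL1 (Arntl) and CLOCK switch on their own repressors, the PER and CRY proteins, together with the REV-ERB receptors (Nr1d1, Nr1d2), which in turn repress Arntl. Clock-driven factors such as DBP, TEF and HLF pass the rhythm on to enzymes of drug, lipid and sugar metabolism. Feeding, body temperature and adrenal hormones add rhythms of their own, among them those of protein folding in the endoplasmic reticulum (ER) and of fuel use. Mice eat mostly at night, so that ZT0 livers come from animals at the end of the main feeding period and ZT12 livers from animals at its start.

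RNA was measured as FPKM, fragments per length of transcript and total of mapped reads, and analysed as log2(FPKM + 1). On this scale a fold change of a gene with low FPKM is understated. Of 23849 gene symbols, 9806 averaged 1 FPKM or more across the whole series and were tested with limma, and a gene was called at a Benjamini-Hochberg adjusted p under 0.05 over all of them. Values are listed below in the order of replicates 1, 2 and 3, fold changes are ZT12 against ZT0 on the log2 scale, and ± stands for the standard error. The FPKM of the 6 libraries summed to between 660818 and 714284, the 10 highest genes took between 23.9% and 25.8% of the sum, and the estimated relative depth spanned 1.34 times. Hepatocyte markers were abundant, with Ttr between 6123 and 8197 FPKM, while Alb (albumin) is listed at 0 in every library, a failed estimate in a liver. The RNA is of whole liver, so that fewer cells of a type and less RNA per cell cannot be told apart.

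The evening liver differed from the morning liver in 1020 genes, of which 551 were higher and 469 lower at ZT12. These are 10.4% of the genes tested, 5.62% higher and 4.78% lower. At an unadjusted p under 0.05, 1408 genes (14.4%) were higher and 1277 (13%) lower. The median fold change over all genes was 0.01, with quartiles of −0.16 and 0.17. Most changes were moderate: the median size among the called genes was 0.62, the smallest that passed was 0.29, and 185 reached 1 or more (106 higher, 79 lower). With 3 mice against 3, an exact permutation of single values allows no two-sided p below 0.1, and calls rest on the spread that limma shares across genes. Of the 9806 genes tested, 1706 were higher and 1546 lower without overlap between the groups, so that a lack of overlap alone is common. The count depended on single libraries and was 226 without ZT12 replicate 2, 277 without ZT12 replicate 3, 279 without ZT0 replicate 3 and 532 without ZT12 replicate 1.

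Pathways were described with 52 lists of genes, which held 1052 of the symbols tested. The lists were written from general knowledge with earlier results of these data known, so that their shares of called members may partly follow from that choice. They are set against the background shares of 5.62% and 4.78%, with no test of a list. The largest shares of called members lay in the lists of clock activators, REV-ERB and PAR bZIP factors, ER chaperones, tubulins and actins, and bile acids. The activator list also holds the repressor Nfil3. After a count of calls, the range of that count over the 6 fits that leave out 1 library is given where a list had 3 or more calls in a direction. Of 39 counts of 1 or 2 calls in the pathway lists, 29 fell to 0 in at least 1 of these fits. Lists without a called member were coagulation, complement, cytosolic ribosomal proteins, the respiratory chain, periportal genes, MHC class II and cold-inducible RNA-binding proteins.

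**Figure D1:**
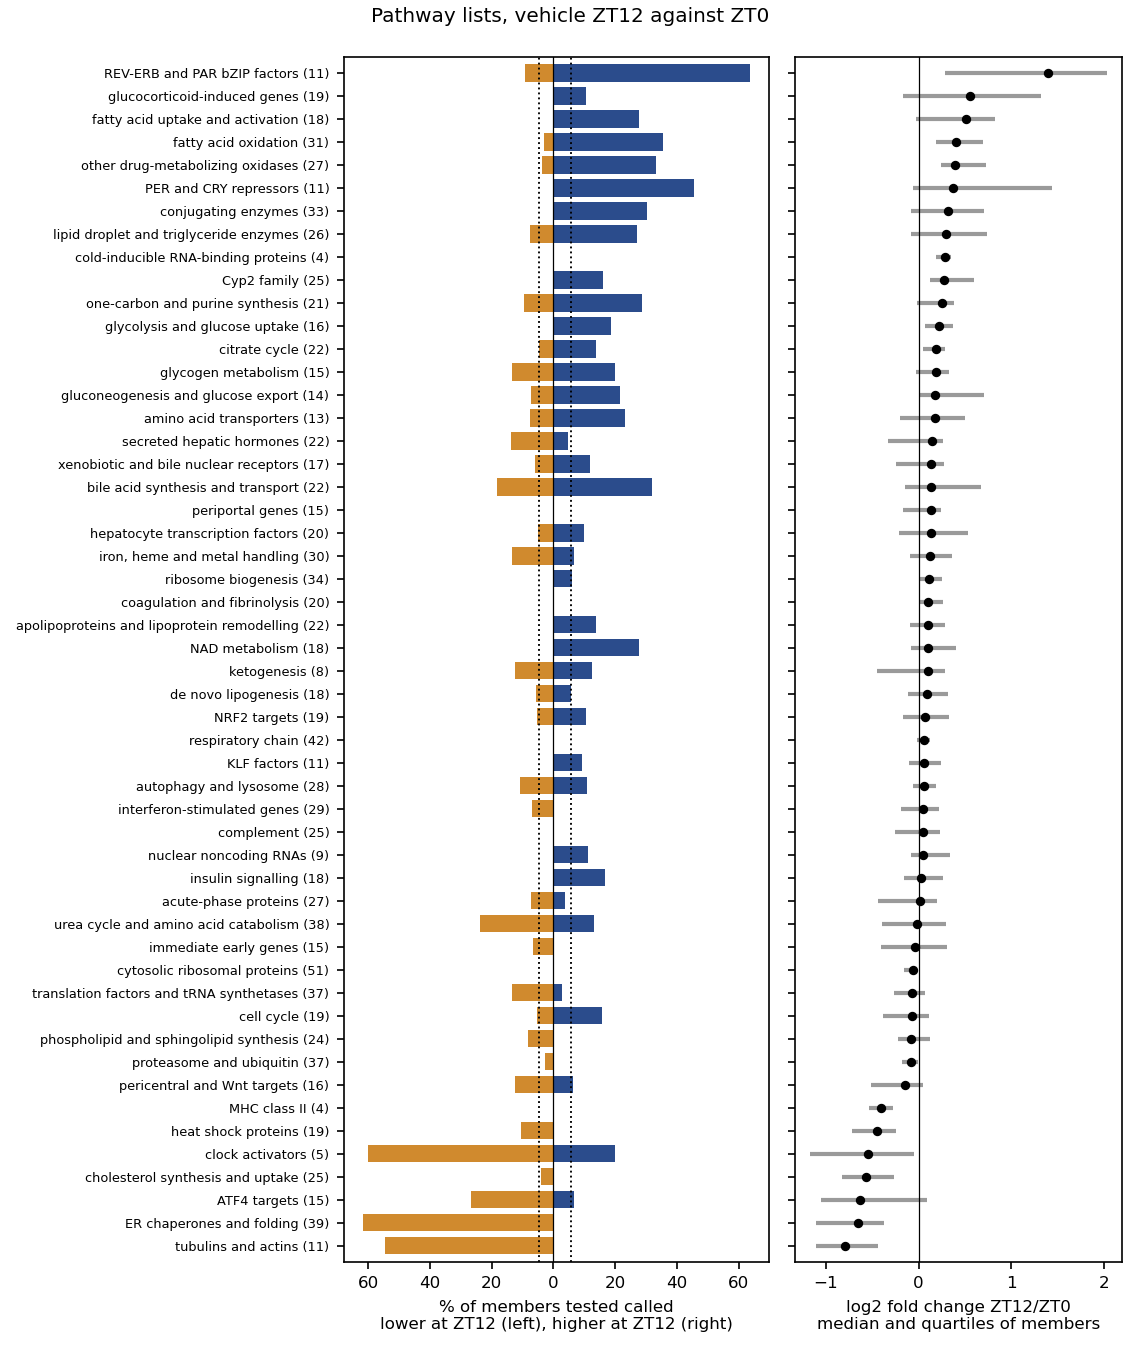
Left, the percent of tested members of each pathway list (number tested in brackets) that were called lower (orange, left of 0) or higher (blue, right of 0) at ZT12, with dotted lines at the shares over all genes, 4.78% and 5.62%. Right, the median (point) and quartiles (bar) of the members' log2 fold changes; the lists are sorted by this median, from 1.39 for REV-ERB and PAR bZIP factors to −0.79 for tubulins and actins.

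Clock genes differed between the times. Of the 5 genes tested in the clock activator list, which also holds the repressor Nfil3, 3 were called lower and 1 higher. The first count was 1 to 2 without 1 library, fewest without any but ZT0 replicate 1 or ZT0 replicate 2. The activator Arntl had 4.95, 7.18 and 9.99 FPKM at ZT0 and 1.09, 2.02 and 1.77 FPKM at ZT12, and the groups did not overlap (log2 fold change −1.65 ± 0.24, adjusted p = 0.0117). Its partner Clock had 3.01, 3.97 and 3.52 FPKM at ZT0 and 1.82, 2.06 and 2.35 FPKM at ZT12, a smaller fall (log2 fold change −0.55 ± 0.11, adjusted p = 0.0311). Nfil3, a repressor of D-box genes, also fell, with 40.1, 26.99 and 50.4 FPKM at ZT0 and 16.9, 20.1 and 12.6 FPKM at ZT12 (log2 fold change −1.18 ± 0.25, adjusted p = 0.0325).

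Of the 11 PER and CRY list members tested, 5 were called higher (3 to 5 without 1 library, fewest without ZT0 replicate 3 or ZT12 replicate 2) and none lower, with a median of 0.37. Per3 had 2.49, 1.38 and 0.657 FPKM at ZT0 and 8.18, 10.9 and 8.39 FPKM at ZT12 (log2 fold change 2.07 ± 0.26, adjusted p = 0.00803). Per1 had 2.86, 4.56 and 3.34 FPKM at ZT0 and 9.91, 8.05 and 15.9 FPKM at ZT12 (log2 fold change 1.39 ± 0.25, adjusted p = 0.0195). Per2 had 3.46, 6.27 and 3.79 FPKM at ZT0 and 11.1, 15.2 and 16.7 FPKM at ZT12 (log2 fold change 1.497 ± 0.22, adjusted p = 0.0119). For all of these period genes the lowest evening library lay above the highest morning library. The CRY genes gave no call: Cry1 had a fold change of 0.37, adjusted p = 0.421 and Cry2 of 0.18, adjusted p = 0.519, and in both the groups overlapped. Bhlhe40 (DEC1), a further repressor of BMAL1 and CLOCK, rose by a fold change of 0.83, adjusted p = 0.023. Ciart, which represses the same activators, had 0.923, 0.544 and 0.0782 FPKM at ZT0 and 12.3, 6.81 and 9.82 FPKM at ZT12, and stayed below 1 FPKM in all morning mice (log2 fold change 2.82 ± 0.26, adjusted p = 0.00347).

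The REV-ERB and PAR bZIP list, which also holds clock outputs such as Usp2, Wee1, Ccrn4l and Nampt, had 7 of 11 members called higher and 1 lower. The first count was 3 to 6 without 1 library, fewest without ZT12 replicate 2. The exception was Nr1d1 (REV-ERBα), which had 56.7, 33.7 and 21.4 FPKM at ZT0 and 12.8, 5.65 and 7.22 FPKM at ZT12 and fell (log2 fold change −1.97 ± 0.39, adjusted p = 0.0271). Nr1d2 (REV-ERBβ) was at 7.87, 8.08 and 5.29 FPKM at ZT0 and 11.5, 9.27 and 9.84 FPKM at ZT12 and did not pass (fold change 0.49, adjusted p = 0.107). Dbp, on the plus strand at chr7:45705088-45710203 of mm10, had 17.9, 6.97 and 1.85 FPKM at ZT0 and 73.97, 54.03 and 57.98 FPKM at ZT12 (log2 fold change 3.05 ± 0.61, adjusted p = 0.0284). The morning mice differed widely in Dbp, and none of them reached the level of an evening mouse. Tef and Hlf, the other PAR bZIP factors, rose by 1.39, adjusted p = 0.0101, and by 0.78, adjusted p = 0.0271. Clock outputs moved with them: Usp2, a deubiquitinase, had 0.425, 1.02 and 0.419 FPKM at ZT0 and 13.2, 14.8 and 19.9 FPKM at ZT12 (log2 fold change 3.39 ± 0.20, adjusted p = 0.00172). Wee1, a kinase that delays mitosis, had 0.668, 0.508 and 0.248 FPKM at ZT0 and 3.52, 4.17 and 4.595 FPKM at ZT12 (log2 fold change 1.79 ± 0.14, adjusted p = 0.00258). Ccrn4l (nocturnin) had 2.19, 8.69 and 4.17 FPKM at ZT0 and 17.5, 22.1 and 41.4 FPKM at ZT12 (log2 fold change 2.27 ± 0.45, adjusted p = 0.0274).

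**Figure D2:**
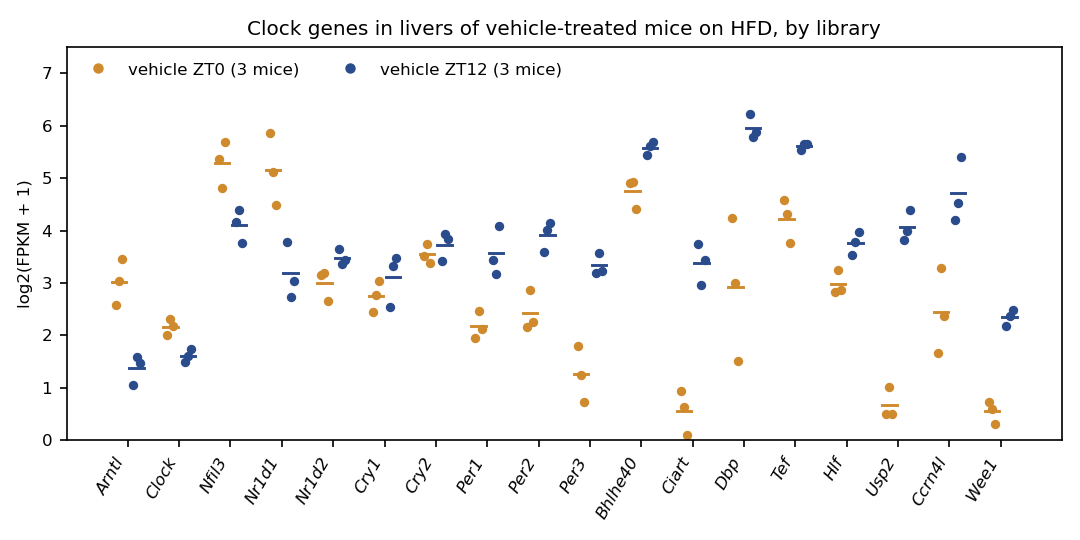
log2(FPKM + 1) of 18 clock and clock output genes in each library (points) with the group mean (line), orange for ZT0 and blue for ZT12. Arntl, Clock, Nfil3 and Nr1d1 lie lower in the evening without overlap, Cry1 and Cry2 overlap, and the remaining genes lie higher in the evening without overlap, Nr1d2 below the threshold of the test. Of all 9806 genes tested, 1706 were higher and 1546 lower without overlap.

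BMAL1 and CLOCK bind E-boxes (CACGTG), and DBP, TEF, HLF and NFIL3 bind D-boxes (TTANGTAA). RefSeq promoter windows of GRCm38.p6 (the mm10 build), from 250 bases before to 50 after the start, were searched on both strands for these letters. They were available for 7428 of the genes tested (75.7%). An E-box was in 7.15% of all 32851 windows, and by gene in 12.5% of the genes tested, 17.5% of those called higher (71 of 406) and 13.4% of those called lower (48 of 357). A D-box was in 2.32% of all windows, in 1.99% of the genes tested, in 3.94% of those called higher (16) and in 0.56% of those called lower (2, Nif3l1 and Prss53). The PER and CRY list and the REV-ERB and PAR bZIP list, which also hold clock outputs, had 12 genes called higher. Of these 8 had a window, of which Per1, Ciart and Tef held an E-box and Per3 a D-box. No letters of these kinds lay in the windows of Usp2 or Dbp, which says nothing of the rest of these genes. The promoters of Ciart (minus strand, chr3:95882237-95882374, 3 E-boxes between 116 and 39 bases before the start) and Per3 (minus strand, chr4:151044786-151044900, 2 D-boxes between 205 and 151 bases before it) are shown because they carry several copies, with the motifs in capitals.
Ciart: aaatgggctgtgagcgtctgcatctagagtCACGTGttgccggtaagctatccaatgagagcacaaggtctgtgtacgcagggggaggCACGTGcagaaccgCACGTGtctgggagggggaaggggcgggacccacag
Per3: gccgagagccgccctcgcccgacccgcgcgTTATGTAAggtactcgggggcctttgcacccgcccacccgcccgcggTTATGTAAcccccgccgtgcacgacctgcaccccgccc

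Several of the largest evening rises outside the clock lists were in genes of metabolism. Upp2, a uridine phosphorylase of the liver on the plus strand at chr2:58567298-58792971, had 24.8, 28.5 and 23.4 FPKM at ZT0 and 204, 232 and 214 FPKM at ZT12, with the smallest adjusted p of all genes tested (log2 fold change 3.04 ± 0.10, adjusted p = 0.000138). Lpin1, a phosphatidate phosphatase and coactivator, had 6.07, 5.14 and 5.56 FPKM at ZT0 and 52.2, 34.5 and 35.2 FPKM at ZT12 (log2 fold change 2.63 ± 0.17, adjusted p = 0.00215). Alas1, which catalyses the rate-limiting step of heme synthesis, had 78.5, 111 and 61.2 FPKM at ZT0 and 481, 471 and 314 FPKM at ZT12 (log2 fold change 2.34 ± 0.25, adjusted p = 0.00527). The variation between mice was wider in Thrsp, a lipogenic nuclear protein, with 371, 90.5 and 264 FPKM at ZT0 and 1021, 2064 and 1102 FPKM at ZT12 (log2 fold change 2.67 ± 0.53, adjusted p = 0.0274). Mfsd2a, a carrier of lysophospholipids, had 22.3, 23.02 and 6.58 FPKM at ZT0 and 75.3, 83.3 and 129 FPKM at ZT12 (log2 fold change 2.54 ± 0.46, adjusted p = 0.0207). Tsku (tsukushi), a secreted protein, had 12.4, 46.96 and 12.96 FPKM at ZT0 and 100.9, 105 and 134 FPKM at ZT12 (log2 fold change 2.45 ± 0.48, adjusted p = 0.026). Cish, an inhibitor of cytokine and growth hormone signalling that STAT5 induces, had 2.41, 1.77 and 0.717 FPKM at ZT0 and 32.03, 35.6 and 4.96 FPKM at ZT12 (log2 fold change 2.93 ± 0.69, adjusted p = 0.043). A single evening mouse was far below the others. The call of Cish held in no more than 1 of the 6 fits that leave out a library, as did that of Tsku.

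RNAs for protein folding in the ER were lower in the evening. Chaperones and enzymes of the ER fold newly made secretory proteins, and genes for many of them are switched on together by the unfolded protein response. Of 39 tested, 24 were called lower and none higher, against 4.78% of all genes, and 38 of 39 had a fold change below 0 (median −0.65). The count was 14 to 24 without 1 library, fewest without ZT12 replicate 2. Sdf2l1, an ER chaperone cofactor on the minus strand at chr16:17130138-17132383, had 138, 147 and 144 FPKM at ZT0 and 20.5, 17.1 and 14.8 FPKM at ZT12, the largest fall of the named genes (log2 fold change −2.97 ± 0.12, adjusted p = 0.00026). Hspa5 (BiP), the main HSP70 of the ER, had 722, 959.6 and 819 FPKM at ZT0 and 287, 244 and 244 FPKM at ZT12 (log2 fold change −1.68 ± 0.13, adjusted p = 0.00258). The morning and evening values of both genes lay far apart compared with the spread within each time. Creld2, another ER stress protein, had 124, 229 and 129 FPKM at ZT0 and 30.3, 19.6 and 25.96 FPKM at ZT12 (log2 fold change −2.58 ± 0.26, adjusted p = 0.00462).

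Manf, a secreted ER stress factor, had 149, 151 and 131 FPKM at ZT0 and 41.5, 28.3 and 27.9 FPKM at ZT12 (log2 fold change −2.13 ± 0.16, adjusted p = 0.00258). Syvn1, the ubiquitin ligase of ER-associated degradation, had 135, 191 and 124 FPKM at ZT0 and 37.8, 27.7 and 29.8 FPKM at ZT12 (log2 fold change −2.19 ± 0.19, adjusted p = 0.00313). Abundant calcium-binding chaperones fell as well. Calr (calreticulin) had 668, 739.8 and 755 FPKM at ZT0 and 332, 323 and 361 FPKM at ZT12 (log2 fold change −1.09 ± 0.09, adjusted p = 0.00313). Hsp90b1 (GRP94) had 407, 555 and 509 FPKM at ZT0 and 238, 220.3 and 243 FPKM at ZT12 (log2 fold change −1.05 ± 0.13, adjusted p = 0.00734). Of the sensors and factors of the response in the list, Atf6, Ern1 and Xbp1 were not called, with fold changes of −0.17, 0.04 and −0.25, and were named after their values were seen.

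The ER stress element, the binding site of ATF6 with NF-Y, reads CCAAT, 9 bases of any kind, and CCACG. It was found in 39 of 32851 promoter windows (0.119%) and in 14 of the 7428 genes tested with a window (0.188%). None of the 406 genes called higher held it, and 10 of the 357 called lower did (2.8%): Alg12, Calr, Canx, Creld2, Dnajc3, Hsp90b1, Hspa5, Pan2, Pdia6 and Syvn1. Within the ER list, 8 of 18 called lower with a window held it, and 1 of 11 not called, Derl3. The element is known from such genes, so that its presence in this list is background; Sdf2l1 had a window without it. The search was chosen after the falls were seen. The stretches below, 5′ to 3′ on the strand of the gene, have the element in capitals, which in Creld2 and Calr is its reverse complement (CCACG reads CGTGG and CCAAT reads ATTGG). They are those of the 5 members with the lowest fold changes that hold it. They lie at chr15:88819490-88819568 (plus strand), chr19:6046502-6046575 (plus), chr2:34771995-34772073 (plus), chr12:17266461-17266539 (plus) and chr8:84847045-84847123 (minus), and none of these matches overlaps an E-box, a D-box or a cAMP response element.
Creld2: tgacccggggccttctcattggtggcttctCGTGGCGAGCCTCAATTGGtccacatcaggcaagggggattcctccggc
Syvn1: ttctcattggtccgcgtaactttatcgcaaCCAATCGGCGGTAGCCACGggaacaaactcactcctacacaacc
Hspa5: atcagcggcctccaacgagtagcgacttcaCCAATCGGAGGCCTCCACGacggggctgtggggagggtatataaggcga
Pdia6: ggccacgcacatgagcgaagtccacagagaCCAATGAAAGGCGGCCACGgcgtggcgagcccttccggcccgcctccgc
Calr: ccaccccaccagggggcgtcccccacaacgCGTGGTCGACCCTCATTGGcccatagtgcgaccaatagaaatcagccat

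Other stress-induced genes changed in part. Of 15 ATF4 targets tested, 4 were called lower (2 to 4 without 1 library, fewest without any but ZT0 replicate 2 or ZT12 replicate 1) and 1 higher. Atf5 had 501, 342 and 427 FPKM at ZT0 and 104, 113 and 164 FPKM at ZT12 (log2 fold change −1.74 ± 0.21, adjusted p = 0.00695). Ddit3 (CHOP, −1.42, adjusted p = 0.0101) and Nupr1 (−1.11, adjusted p = 0.0355) fell as well. The fourth was Gdf15, a stress hormone secreted by the liver, with 19.2, 11.8 and 20.9 FPKM at ZT0 and 7.23, 1.47 and 3.17 FPKM at ZT12 (log2 fold change −2.02 ± 0.43, adjusted p = 0.0328). Atf4 itself (−0.47, adjusted p = 0.145), Trib3 (−0.63, adjusted p = 0.124) and Asns (−0.99, adjusted p = 0.279) were not called, and Shmt2, the mitochondrial serine hydroxymethyltransferase, rose by 0.39, adjusted p = 0.0227. Among 19 heat shock genes 2 were called lower, Bag3 (−0.97, adjusted p = 0.0149) and Stip1 (−0.71, adjusted p = 0.0437), while 16 of 19 had a fold change below 0 (median −0.45). This count rested on ZT0 replicate 1, in which Hspa8, Hsp90aa1, Hsph1 and Dnajb1 were lower than in the other morning mice. Without it 13 were called lower, without ZT0 replicate 3 or ZT12 replicate 2 there were 0, and without any of the others 1. Hspa1b had 9.86, 30.6 and 34.2 FPKM at ZT0 and 10.8, 11.01 and 15.4 FPKM at ZT12, and the groups overlapped (−0.79, adjusted p = 0.288). It has a near-identical copy, Hspa1a (0.08, adjusted p = 0.892), so that its values are uncertain. Cirbp and Rbm3, which rise when body temperature falls, were not called (0.34, adjusted p = 0.233, and 0.06, adjusted p = 0.813).

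Cytoskeletal genes were lower in the evening as well. Of 11 tubulin and actin genes tested, 6 were called lower (4 to 7 without 1 library, fewest without ZT0 replicate 3 or ZT12 replicate 2) and none higher, and all 11 had a fold change below 0 (median −0.79). Tubb2a, on the minus strand at chr13:34074274-34078007, had 111, 76.6 and 123 FPKM at ZT0 and 9.41, 26.6 and 22.4 FPKM at ZT12 (log2 fold change −2.44 ± 0.37, adjusted p = 0.013). Tubb5 had 34.04, 28.8 and 33.98 FPKM at ZT0 and 11.8, 10.9 and 10.9 FPKM at ZT12 (log2 fold change −1.44 ± 0.09, adjusted p = 0.00222). Tubb4b had 94.8, 90.9 and 93.1 FPKM at ZT0 and 44.4, 35.98 and 39.9 FPKM at ZT12 (log2 fold change −1.20 ± 0.09, adjusted p = 0.00258). Both had narrow spreads. Tuba4a (−1.01, adjusted p = 0.00739) and Tuba1c (−0.90, adjusted p = 0.0184) fell with them, and Tuba1a (−0.48, adjusted p = 0.232) did not pass. Tubulin genes are closely related and can share reads, so that the values of single members are uncertain.

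**Figure D3:**
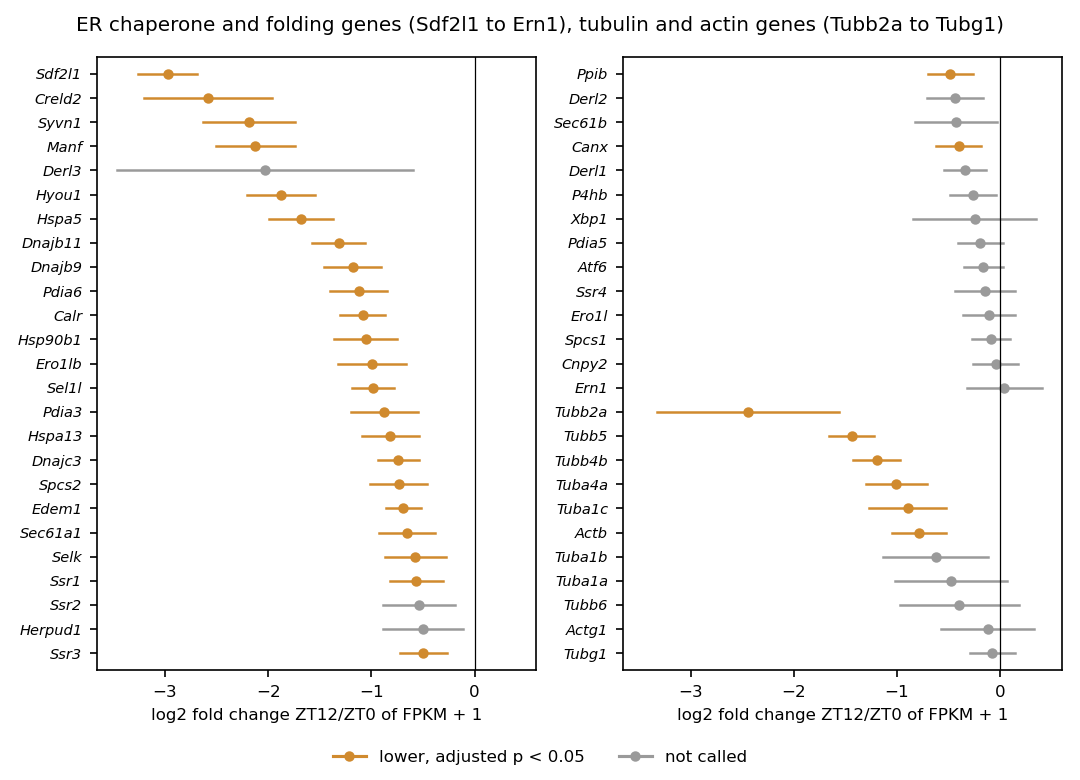
log2 fold change ZT12 against ZT0 of FPKM + 1 (point) with its 95% interval (line) for the 39 ER chaperone and folding genes and the 11 tubulin and actin genes tested, each group sorted from the lowest. Orange genes were called lower and grey ones were not called; every gene but Ern1 lies below 0.

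Of the markers of other cell types, only those of liver endothelium and cholangiocytes gave calls. All 10 tested markers of liver endothelium had a fold change below 0. Of these 2 (20%) were called lower, against 4.78% of all genes. At an unadjusted p under 0.05 in limma 8 were lower, against 13% of all genes. The endothelial list of 11 summed to between 54.2 and 68.0 FPKM at ZT0 and between 28.1 and 47.3 FPKM at ZT12, without overlap. Of 5 cholangiocyte markers tested 1 was called lower. The 8 Kupffer cell and macrophage markers tested had fold changes below 0, none called, with overlapping list sums of 71.8 to 77.2 FPKM in the morning and 37.0 to 81.9 FPKM in the evening. The 10 stellate cell markers tested had fold changes below 0 with none called, and the list sums overlapped (95 to 146 and 89.4 to 131 FPKM). All 4 MHC class II genes tested were below 0 without a call. H2-Aa had 24.9, 10.8 and 18.3 FPKM at ZT0 and 14.6, 9.19 and 9.97 FPKM at ZT12, and H2-Ab1 had a fold change of −0.52, adjusted p = 0.312. The sum of 10 hepatocyte markers overlapped between the times (48666 to 52910 and 49031 to 55815 FPKM). The exocrine pancreas list did not overlap, at 47.7 to 71.2 and 31.1 to 46.8 FPKM, almost all of it Cela1, with 9 of its 13 genes at 0, Prss1 and Cpa1 among them. The adipocyte list overlapped, at 1543 to 2642 FPKM at ZT0 and 2346 to 3066 FPKM at ZT12, almost all of it Car3. Its member Cfd had 7.97, 2.85 and 7.10 FPKM at ZT0 and 11.4, 42.8 and 26.1 FPKM at ZT12, without overlap, and was not called. Adipoq, Plin1, Lep and Retn of this list were at or near 0 in every library. The part of cell content in the falls of ER, tubulin and MHC genes was not tested.

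**Figure D4:**
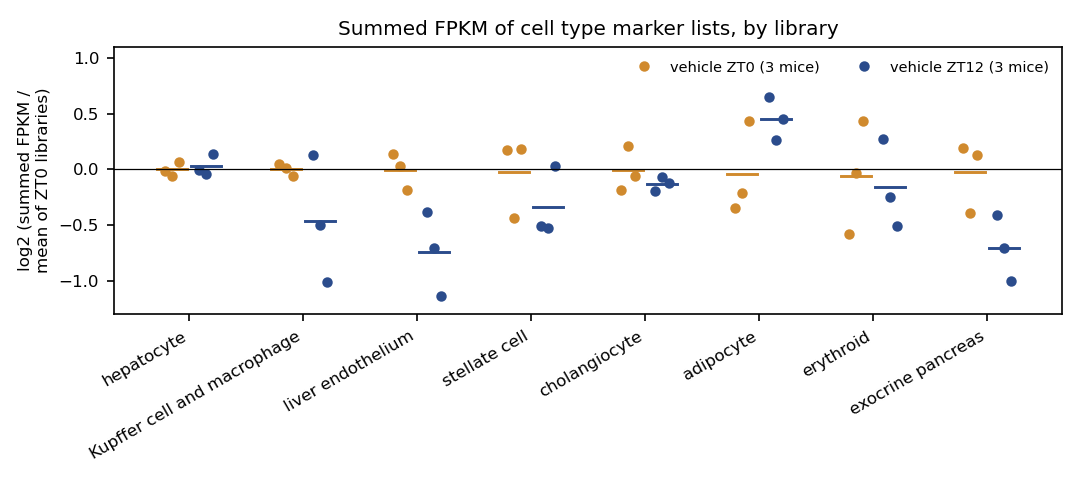
Summed FPKM of each cell type marker list in each library, as log2 of its ratio to the mean of the 3 ZT0 libraries (orange ZT0, blue ZT12, lines at group means); lists whose sum was 5 FPKM or less in a library are left out. Hepatocyte sums stay near 0, and endothelial and exocrine pancreas sums lie lower at ZT12 without overlap.

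Hormone and growth signals gave scattered calls. Adrenal glucocorticoids of mice peak near the onset of activity. Of 19 genes that they induce 2 were called higher and none lower (median 0.55). At an unadjusted p under 0.05 in limma 10 were higher, against 14.4% of all genes. Fkbp5, a chaperone of the glucocorticoid receptor, had 6.43, 6.497 and 2.24 FPKM at ZT0 and 15.4, 20.1 and 24.03 FPKM at ZT12 (log2 fold change 1.86 ± 0.34, adjusted p = 0.0215). The other call was Per1. In contrast Tsc22d3 (0.07, adjusted p = 0.912), Sgk1 (−0.51, adjusted p = 0.37) and Tat (−0.19, adjusted p = 0.748) overlapped between the times. Of 15 immediate early genes tested, 1 was called, Dusp6, a phosphatase that limits ERK, which fell (−0.81, adjusted p = 0.0431). Myc had 0.697, 1.46 and 0.417 FPKM at ZT0 and 7.43, 23.9 and 2.501 FPKM at ZT12 (log2 fold change 2.32 ± 0.65, adjusted p = 0.0711). All evening mice were above all morning mice, but the spread among them was wide and Myc did not pass. Egr1 (0.30, adjusted p = 0.81) and Jun (0.20, adjusted p = 0.499) were not called. Plk3, a stress-responsive kinase, had 14.9, 17.99 and 17.3 FPKM at ZT0 and 109, 62.1 and 40.1 FPKM at ZT12 (log2 fold change 1.90 ± 0.33, adjusted p = 0.0178). Cxcl1, a neutrophil chemokine, fell, with 47.1, 14.2 and 28.6 FPKM at ZT0 and 6.24, 5.32 and 3.86 FPKM at ZT12 (log2 fold change −2.20 ± 0.39, adjusted p = 0.0202).

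Of 14 genes of gluconeogenesis and glucose export, 3 were called higher (2 to 3 without 1 library, fewest without ZT0 replicate 3 or ZT12 replicate 3) and 1 lower. Slc2a2 (GLUT2), the glucose transporter of hepatocytes, had 73.5, 62.4 and 63.04 FPKM at ZT0 and 116, 119 and 121 FPKM at ZT12 (log2 fold change 0.83 ± 0.09, adjusted p = 0.00536). Slc37a4, which carries glucose 6-phosphate into the ER, had 102, 98.9 and 88.6 FPKM at ZT0 and 162, 167 and 166 FPKM at ZT12 (log2 fold change 0.77 ± 0.08, adjusted p = 0.00536). The gluconeogenic enzymes varied more between mice: G6pc had 56.9, 138 and 149.5 FPKM at ZT0 and 171, 228 and 288 FPKM at ZT12 without overlap but did not pass (log2 fold change 1.08 ± 0.38, adjusted p = 0.124). Pck1 overlapped (0.74, adjusted p = 0.279). Ldha (lactate dehydrogenase) fell, with 896, 804 and 766 FPKM at ZT0 and 471, 512 and 536 FPKM at ZT12 (log2 fold change −0.70 ± 0.10, adjusted p = 0.0106). Foxo1, which activates gluconeogenic genes, rose by 0.60, adjusted p = 0.0102.

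In glycolysis and glucose uptake 3 of 16 genes were called higher (0 to 3 without 1 library, fewest without ZT12 replicate 2) and none lower. Pklr, the liver pyruvate kinase, had 85.7, 45.3 and 97.8 FPKM at ZT0 and 204, 230.2 and 179 FPKM at ZT12 (log2 fold change 1.48 ± 0.28, adjusted p = 0.0236). Pfkfb3 rose by 1.43, adjusted p = 0.0105, and Fgf1 by 0.80, adjusted p = 0.0182. Of 15 glycogen genes, 3 were higher (1 to 2 without 1 library, fewest without any but ZT0 replicate 1 or ZT0 replicate 2) and 2 lower (0 to 1 without 1 library, fewest without ZT0 replicate 3, ZT12 replicate 1 or ZT12 replicate 2). Gys2, the liver glycogen synthase, had 39.6, 47.3 and 44.9 FPKM at ZT0 and 97.2, 109 and 105 FPKM at ZT12 (log2 fold change 1.22 ± 0.10, adjusted p = 0.00258). Gbe1 (0.66, adjusted p = 0.0358) and Ugp2 (0.54, adjusted p = 0.0369) rose with it. Ppp1r3c, a subunit that targets a phosphatase to glycogen, had 25.98, 38.8 and 50.9 FPKM at ZT0 and 12.6, 10.2 and 16.3 FPKM at ZT12 (log2 fold change −1.47 ± 0.26, adjusted p = 0.0193) and fell. Phkg2 fell as well (−0.35, adjusted p = 0.0432). Pygl, which breaks glycogen down, did not pass (0.19, adjusted p = 0.44). Of 18 insulin signalling genes, Pik3r1 (0.55, adjusted p = 0.0203), Foxo3 (0.51, adjusted p = 0.0246) and Foxo1 were higher. Their count was 0 to 3 without 1 library, fewest without ZT0 replicate 3 or ZT12 replicate 3. The receptor Insr (0.22, adjusted p = 0.194) and its substrates Irs1 (−0.55, adjusted p = 0.0954) and Irs2 (−0.31, adjusted p = 0.184) were not called.

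Several genes for the oxidation, uptake and hydrolysis of lipids were higher in the evening, and those for fatty acid synthesis gave 1 call in each direction. Of 31 fatty acid oxidation genes, 11 were called higher and 1 lower (median 0.40). The first count was 1 without ZT0 replicate 3, ZT12 replicate 2 or ZT12 replicate 3, 6 without ZT12 replicate 1 and 13 without ZT0 replicate 2. Cpt1a, which admits fatty acids to mitochondria, had 67.2, 89.8 and 68.6 FPKM at ZT0 and 119, 129.7 and 139 FPKM at ZT12 (log2 fold change 0.78 ± 0.13, adjusted p = 0.0166). The acyl-CoA thioesterases Acot1 (1.35, adjusted p = 0.0484) and Acot2 (1.16, adjusted p = 0.029) and the pantetheinase Vnn1 (1.33, adjusted p = 0.0173), targets of PPARα, rose too. Ppara itself (0.37, adjusted p = 0.21) and Acadm (0.36, adjusted p = 0.142) were not called, and the lower member was Pdk4 (−1.0004, adjusted p = 0.0472), which switches pyruvate oxidation off. Of 8 ketogenic genes, the ketone and lactate carrier Slc16a7 rose (1.24, adjusted p = 0.0467) and its relative Slc16a1 fell (−0.74, adjusted p = 0.0125).

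Of 18 uptake and activation genes, 5 were called higher (1 to 6 without 1 library, fewest without ZT0 replicate 3, ZT12 replicate 2 or ZT12 replicate 3) and none lower. Fabp1, the main fatty acid-binding protein of the liver, had 10665, 12739 and 12648 FPKM at ZT0 and 18999, 18963 and 19247 FPKM at ZT12 (log2 fold change 0.67 ± 0.12, adjusted p = 0.021). Slc27a2 (FATP2) had 409, 735 and 481 FPKM at ZT0 and 1143, 926 and 1071 FPKM at ZT12 (log2 fold change 0.99 ± 0.22, adjusted p = 0.0358). The medium-chain acyl-CoA synthetases Acsm5 (0.83, adjusted p = 0.00324), Acsm3 (0.75, adjusted p = 0.02) and Acsm1 (0.36, adjusted p = 0.0471) rose. The call of Acsm5 held in all 6 fits that leave out a library, that of Acsm3 in 2 and that of Acsm1 in 0. Among 26 lipid droplet and triglyceride enzymes, 7 were higher (2 to 9 without 1 library, fewest without ZT0 replicate 3, ZT12 replicate 2 or ZT12 replicate 3) and 2 lower. Ces1d, a triglyceride hydrolase, had 163, 144 and 197 FPKM at ZT0 and 685, 849 and 959.9 FPKM at ZT12 (log2 fold change 2.30 ± 0.16, adjusted p = 0.00258). The lipases Pnpla2 (0.56, adjusted p = 0.0138) and Mgll (0.78, adjusted p = 0.028) rose as well. Cidec, which enlarges droplets, had 0.698, 1.81 and 0.913 FPKM at ZT0 and 3.65, 3.41 and 4.69 FPKM at ZT12 (log2 fold change 1.23 ± 0.20, adjusted p = 0.0155). Plin2, the main droplet coat protein, was at 295, 378 and 281 FPKM at ZT0 and 263, 218 and 229 FPKM at ZT12, lower without overlap and not called (−0.42, adjusted p = 0.104).

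Of 18 lipogenic genes 1 was called higher and 1 lower, and Fasn, Srebf1 and Acly overlapped between the times. Fasn (fatty acid synthase) had 93.5, 24.3 and 55.98 FPKM at ZT0 and 24.96, 90.1 and 50.6 FPKM at ZT12. Srebf1, the factor that induces it, had 130.1, 41.2 and 77.4 FPKM at ZT0 and 67.5, 127 and 95.8 FPKM at ZT12. Acly, which makes its acetyl-CoA, had 61.4, 27.1 and 67.99 FPKM at ZT0 and 27.01, 77.9 and 40.3 FPKM at ZT12. None was called (adjusted p = 0.964, 0.67 and 0.885). ZT0 replicate 2 was the lowest of the 6 libraries for Fasn and Srebf1. The calls of this list were Thrsp, higher, and Insig2, an ER protein that holds back SREBP, which fell. Insig2 had 107, 113 and 116 FPKM at ZT0 and 47.96, 46.04 and 38.5 FPKM at ZT12 (log2 fold change −1.33 ± 0.10, adjusted p = 0.00258). Phospholipid genes gave 2 calls of 24, both lower. Chka, a choline kinase, had 39.5, 35.1 and 53.7 FPKM at ZT0 and 5.67, 12.3 and 11.7 FPKM at ZT12 (log2 fold change −2.05 ± 0.29, adjusted p = 0.0102). Ept1, an ethanolamine phosphotransferase, fell less (−0.58, adjusted p = 0.032). Pemt (−0.14, adjusted p = 0.742), Pcyt1a (0.33, adjusted p = 0.119) and Sptlc1 (−0.09, adjusted p = 0.562) were not called.

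**Figure D5:**
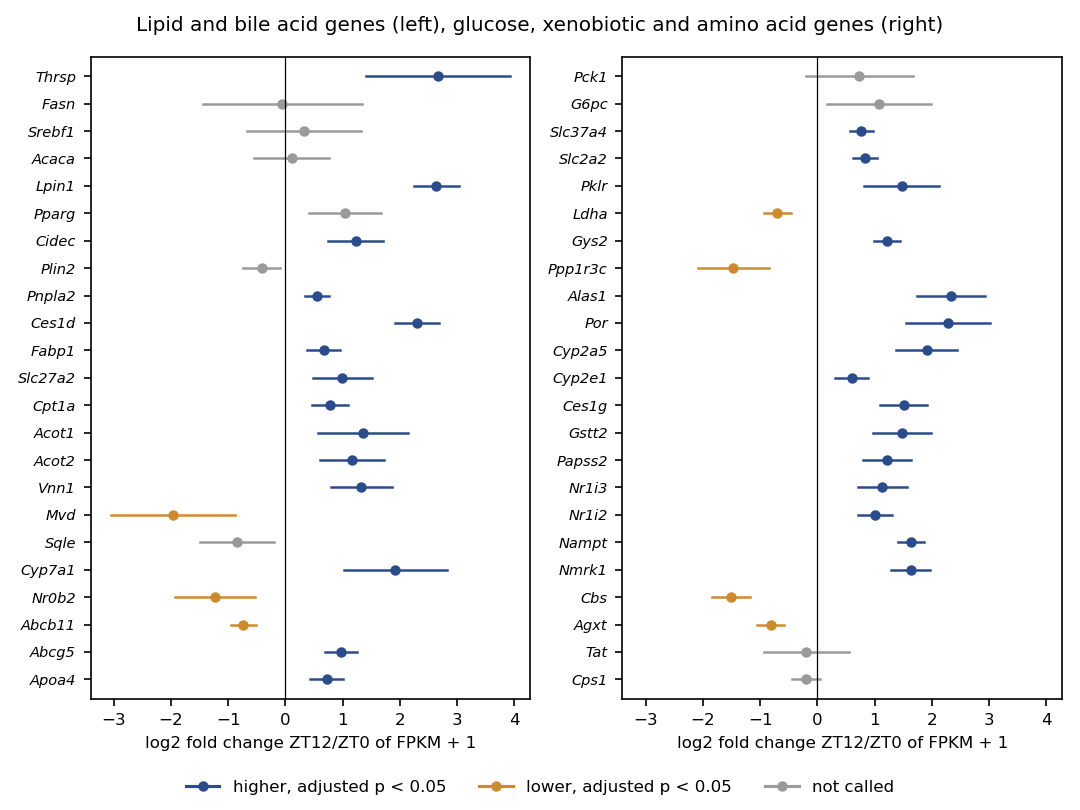
log2 fold change ZT12 against ZT0 of FPKM + 1 (point) with its 95% interval (line) for 46 named metabolic genes, in blue where called higher, orange where called lower and grey where not called. The intervals of Fasn, Srebf1, Acaca and Pck1 span 0, while Lpin1 (2.63), Ces1d (2.30), Alas1 (2.34) and Por (2.28) lie far above it.

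Genes of cholesterol synthesis and uptake were below 0 in 23 of 25 cases (median −0.56) with a single call. The median was −0.30 without ZT0 replicate 1, −0.35 without ZT12 replicate 1 and −0.91 without ZT0 replicate 2. Mvd, an enzyme of the mevalonate pathway, had 109, 32.6 and 65.3 FPKM at ZT0 and 9.21, 20.6 and 17.5 FPKM at ZT12 (log2 fold change −1.97 ± 0.46, adjusted p = 0.0423). Sqle (−0.85, adjusted p = 0.0997) and Srebf2 (−0.15, adjusted p = 0.672) were not called. The morning mice differed strongly in this pathway, with ZT0 replicate 2 the lowest of the morning libraries for Mvd and Sqle. Without it 8 genes were called lower, and without any other library 0.

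Bile acid genes changed in both directions, 7 higher (1 to 6 without 1 library, fewest without ZT12 replicate 2) and 4 lower (1 to 4 without 1 library, fewest without ZT12 replicate 2) of 22. Cyp7a1, the rate-limiting enzyme of bile acid synthesis, on the minus strand at chr4:6265612-6275633, had 9.296, 8.38 and 17.7 FPKM at ZT0 and 28.01, 45.7 and 70.98 FPKM at ZT12 (log2 fold change 1.92 ± 0.38, adjusted p = 0.0272). Nr0b2 (SHP), which represses Cyp7a1, had 128, 59.4 and 89.4 FPKM at ZT0 and 43.02, 27.3 and 42.4 FPKM at ZT12 and fell (log2 fold change −1.23 ± 0.30, adjusted p = 0.0459). Akr1d1, a steroid reductase of the pathway, rose by 0.86, adjusted p = 0.028, while Cyp8b1 was not called (0.24, adjusted p = 0.524). Of the exporters, Abcb11, the bile salt pump, had 96.8, 83.3 and 97.3 FPKM at ZT0 and 56.6, 55.9 and 52.1 FPKM at ZT12 (log2 fold change −0.74 ± 0.09, adjusted p = 0.00739) and fell. In contrast Abcc3, at the sinusoidal face, had 26.2, 17.5 and 17.3 FPKM at ZT0 and 41.4, 46.8 and 59.5 FPKM at ZT12 (log2 fold change 1.24 ± 0.20, adjusted p = 0.0137). Abcg5, of the sterol exporter, had 28.9, 27.5 and 22.6 FPKM at ZT0 and 55.95, 54.6 and 47.2 FPKM at ZT12 (log2 fold change 0.98 ± 0.12, adjusted p = 0.00734). Among 22 apolipoprotein and lipoprotein genes 3 were higher (0 to 3 without 1 library, fewest without ZT0 replicate 3 or ZT12 replicate 2), Apoa4 (0.72, adjusted p = 0.0167) and Apoa5 (0.69, adjusted p = 0.0199) among them. Apoa1 (−0.07, adjusted p = 0.758) and Apob (−0.04, adjusted p = 0.833) were not called.

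Calls among drug-metabolizing enzymes were higher in the evening with 1 exception, though most members did not pass. Por, the reductase that supplies electrons to all microsomal cytochromes P450, had 85.2, 65.6 and 38.2 FPKM at ZT0 and 221, 330.3 and 349 FPKM at ZT12 (log2 fold change 2.28 ± 0.31, adjusted p = 0.00945). Alas1, of their heme, rose beside it. Of 27 oxidases and their partners in this list 9 were called higher (4 to 8 without 1 library, fewest without ZT0 replicate 3, ZT12 replicate 2 or ZT12 replicate 3) and 1 lower. Of 33 conjugating enzymes 10 were higher (3 to 9 without 1 library, fewest without ZT0 replicate 3 or ZT12 replicate 2) and none lower, and of 25 Cyp2 genes 4 were higher and none lower. The Cyp2 count was 6 without ZT0 replicate 1 and 1 without ZT0 replicate 3 or any 1 of the ZT12 libraries. Cyp2a5 (coumarin hydroxylase) had 189.7, 106 and 123 FPKM at ZT0 and 425, 546 and 571 FPKM at ZT12 (log2 fold change 1.91 ± 0.23, adjusted p = 0.00695). The abundant Cyp2e1 had 3775, 4088 and 3617 FPKM at ZT0 and 5447, 5380.4 and 6618 FPKM at ZT12 (log2 fold change 0.60 ± 0.12, adjusted p = 0.03). Cyp2c44 (0.60, adjusted p = 0.0175) and Cyp2c54 (0.76, adjusted p = 0.0468) rose. Cyp2c genes are near-identical to each other, and their values are uncertain. Cyp3a11 (0.22, adjusted p = 0.669), Cyp1a2 (0.49, adjusted p = 0.0827) and Cyp2c29 (0.20, adjusted p = 0.648) were not called.

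Among flavin monooxygenases, Fmo1 had 51.9, 50.4 and 50.2 FPKM at ZT0 and 96.4, 102 and 117 FPKM at ZT12 (log2 fold change 1.03 ± 0.09, adjusted p = 0.00326). The esterase Ces1g had 55.9, 36.5 and 51.6 FPKM at ZT0 and 127, 128 and 157 FPKM at ZT12 (log2 fold change 1.51 ± 0.17, adjusted p = 0.00615). Fmo2 rose by 1.54, adjusted p = 0.0324. In conjugation, Gstt2, a glutathione transferase, had 39.7, 23.98 and 24.2 FPKM at ZT0 and 68.3, 82.8 and 94.9 FPKM at ZT12 (log2 fold change 1.48 ± 0.22, adjusted p = 0.0114). Papss2, which makes the sulfate donor, had 29.04, 20.8 and 29.5 FPKM at ZT0 and 53.5, 76.2 and 58.6 FPKM at ZT12 (log2 fold change 1.22 ± 0.18, adjusted p = 0.0117). Sult1c2 rose by 1.14, adjusted p = 0.0163. Gsta3 (0.58, adjusted p = 0.177), Sult1a1 (0.71, adjusted p = 0.0982) and Ugt2b5 (0.36, adjusted p = 0.208) were not called. The receptors that sense drugs rose: Nr1i3 (CAR) had 129, 129 and 106 FPKM at ZT0 and 224, 242 and 349.6 FPKM at ZT12 (log2 fold change 1.14 ± 0.18, adjusted p = 0.014). Nr1i2 (PXR) had 19.9, 24.4 and 19.98 FPKM at ZT0 and 38.3, 44.3 and 49.4 FPKM at ZT12 (log2 fold change 1.004 ± 0.13, adjusted p = 0.00752). Their partner Rxra (0.17, adjusted p = 0.33) and Hnf4a (0.24, adjusted p = 0.227) did not pass, and Nr2f6 fell (−0.42, adjusted p = 0.035). Of 19 NRF2 targets, Gsta2 (1.32, adjusted p = 0.00548) and Ugdh (0.42, adjusted p = 0.0264) rose and Hmox1, which degrades heme, fell (−0.80, adjusted p = 0.0141). Nqo1 (0.54, adjusted p = 0.19), Gclc (−0.31, adjusted p = 0.199) and Txnrd1 (−0.15, adjusted p = 0.323) were not called.

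Amino acid breakdown was divided, with 5 of 38 genes called higher (1 to 5 without 1 library, fewest without ZT0 replicate 3 or ZT12 replicate 2) and 9 lower (3 to 7 without 1 library, fewest without ZT0 replicate 3) and a median of −0.01. Cbs, which starts the conversion of homocysteine to cysteine, had 358, 275 and 344 FPKM at ZT0 and 106, 130.5 and 104 FPKM at ZT12 (log2 fold change −1.51 ± 0.14, adjusted p = 0.00334). Csad, of taurine synthesis, fell (−0.83, adjusted p = 0.0101). Agxt, a peroxisomal transaminase, had 325, 271 and 311 FPKM at ZT0 and 166, 183 and 164 FPKM at ZT12 (log2 fold change −0.82 ± 0.10, adjusted p = 0.00737). The urea cycle enzymes Cps1 (−0.20, adjusted p = 0.28) and Ass1 (−0.15, adjusted p = 0.767) and the transaminase Got1 (−0.09, adjusted p = 0.896) were not called. Of 13 transporters, Slc6a9 had 8.77, 10.4 and 8.85 FPKM at ZT0 and 19.8, 18.7 and 17.01 FPKM at ZT12 (log2 fold change 0.92 ± 0.10, adjusted p = 0.00527). Slc43a1 (0.86, adjusted p = 0.0143) and Slc7a2 (0.62, adjusted p = 0.0173) rose too (3 calls, and 1 to 4 without 1 library, fewest without ZT0 replicate 3 or ZT12 replicate 2), Slc1a4 fell (−1.09, adjusted p = 0.0423), and Slc38a2 (0.40, adjusted p = 0.165) and Slc38a4 (0.10, adjusted p = 0.51) were not called.

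Genes of NAD salvage were among the firmest calls. Nampt, the rate-limiting enzyme of salvage and a clock target, had 6.07, 6.0001 and 5.62 FPKM at ZT0 and 23.04, 19.4 and 19.01 FPKM at ZT12 (log2 fold change 1.64 ± 0.10, adjusted p = 0.00172). Nmrk1, a nicotinamide riboside kinase, had 7.25, 11.2 and 9.63 FPKM at ZT0 and 31.2, 31.7 and 29.2 FPKM at ZT12 (log2 fold change 1.63 ± 0.14, adjusted p = 0.00324). Afmid, of synthesis from tryptophan, had 34.01, 33.4 and 38.3 FPKM at ZT0 and 71.3, 88.9 and 75.97 FPKM at ZT12 (log2 fold change 1.13 ± 0.11, adjusted p = 0.00353). In all, 5 of 18 NAD genes were called higher (3 to 4 without 1 library, fewest without any but ZT0 replicate 1) and none lower, Sirt3 among them (0.45, adjusted p = 0.0417). Nnmt (−0.31, adjusted p = 0.187) and Nadk2 (−0.12, adjusted p = 0.569) were not called. In one-carbon and nucleotide metabolism 6 of 21 were higher (1 to 4 without 1 library, fewest without ZT0 replicate 3, ZT12 replicate 2 or ZT12 replicate 3) and 2 lower. Beside Upp2, the urate oxidase Uox rose (0.65, adjusted p = 0.03). Cad, of pyrimidine synthesis, fell (−0.56, adjusted p = 0.0199). Shmt1 (0.33, adjusted p = 0.122), Mthfd1 (0.26, adjusted p = 0.153) and Gart (−0.05, adjusted p = 0.794) did not pass.

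In iron, heme and metal handling 2 of 30 genes were higher, Alas1 and Blvrb (0.48, adjusted p = 0.0341), and 4 lower (1 to 3 without 1 library, fewest without ZT0 replicate 3 or ZT12 replicate 3). Slc30a10, a manganese exporter, had 10.9, 9.92 and 11.3 FPKM at ZT0 and 3.399, 4.78 and 4.76 FPKM at ZT12 (log2 fold change −1.15 ± 0.13, adjusted p = 0.00577). The iron importer Slc11a2 (−0.46, adjusted p = 0.0308), the zinc importer Slc39a4 and Hmox1 were the other lower ones. The metallothionein Mt1 had 159, 52.7 and 21.8 FPKM at ZT0 and 118, 398 and 1785 FPKM at ZT12 (log2 fold change 2.92 ± 1.06, adjusted p = 0.131). It ranged widely among mice of each time and was not called. Tfrc did not pass (0.15, adjusted p = 0.683).

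Plasma proteins of the liver changed little in number. Of 27 acute-phase genes, 1 was called higher, Il6ra, the IL-6 receptor (1.09, adjusted p = 0.0489), and 2 lower, the fibrinogen chains Fga and Fgg. Fga had 2009, 2069 and 2319 FPKM at ZT0 and 1194, 1385 and 1341 FPKM at ZT12 (log2 fold change −0.71 ± 0.11, adjusted p = 0.0127), and Fgg fell to a like extent (−0.71, adjusted p = 0.0101). The third chain, Fgb, had 3491, 3683 and 3798 FPKM at ZT0 and 2494, 2678 and 3036 FPKM at ZT12 and missed the threshold (log2 fold change −0.42 ± 0.11, adjusted p = 0.0592). Saa1 ranged from 1116 to 9336 FPKM among the evening mice and overlapped the morning (−0.55, adjusted p = 0.704); it shares near-identical sequence with Saa2. Hp (0.19, adjusted p = 0.668) and Orm1 (0.05, adjusted p = 0.926) were not called. None of 20 coagulation and 25 complement genes passed in limma. At an unadjusted p under 0.05, 5 coagulation genes were higher and 1 lower, and 3 complement genes were higher and 1 lower. Of all genes, 14.4% were higher and 13% lower at that threshold. Fold changes were 0.12, adjusted p = 0.493 for F2, 0.32, adjusted p = 0.185 for F7, 0.29, adjusted p = 0.405 for C3 and −0.19, adjusted p = 0.331 for C4b.

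Of 22 secreted hormones and binding proteins, Igfbp4 rose, with 776, 912 and 819 FPKM at ZT0 and 1284, 1348 and 1359 FPKM at ZT12 (log2 fold change 0.67 ± 0.10, adjusted p = 0.0105). Igfbp3 (−0.71, adjusted p = 0.0138), Inhbc (−0.56, adjusted p = 0.0224) and Gdf15 fell (3 calls, and 0 to 3 without 1 library, fewest without ZT0 replicate 3, ZT12 replicate 2 or ZT12 replicate 3). Igf1 (0.17, adjusted p = 0.453), Fgf21 (−0.70, adjusted p = 0.21) and Angptl4 (0.97, adjusted p = 0.4) were not called, and Angptl4 varied from 23.1 to 164 FPKM among the morning mice alone. Spon2, a secreted matrix protein, had 8.88, 8.79 and 13.3 FPKM at ZT0 and 1.66, 1.88 and 1.28 FPKM at ZT12 (log2 fold change −2.10 ± 0.17, adjusted p = 0.00275).

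Core machinery of the cell gave few calls, except for translation factors and tRNA synthetases (16.2% called, against 10.4% of all genes). No gene of 51 cytosolic ribosomal proteins (median −0.07) or of 42 respiratory chain subunits (median 0.06) was called in limma. At an unadjusted p under 0.05 there were 6 and 3, against 14.4% of all genes higher and 13% lower. Rpl3 (−0.04, adjusted p = 0.812), Rps6 (−0.10, adjusted p = 0.711), Rplp0 (−0.30, adjusted p = 0.0866), Cox4i1 (0.04, adjusted p = 0.805) and Sdha (0.05, adjusted p = 0.736) stand for these lists. Of 34 ribosome biogenesis genes, 26 were above 0 and 2 called higher, Ncl, nucleolin (0.49, adjusted p = 0.0467), and Rrp12 (0.47, adjusted p = 0.0493). Among 37 translation genes, Eif4ebp3, an inhibitor of cap-dependent initiation, had 17.3, 22.96 and 18.96 FPKM at ZT0 and 104, 58.6 and 60.2 FPKM at ZT12 (log2 fold change 1.82 ± 0.23, adjusted p = 0.00803). Another 5 were lower (2 to 4 without 1 library, fewest without ZT12 replicate 3). Of these Eif1a had 20.03, 24.1 and 24.9 FPKM at ZT0 and 11.9, 9.08 and 10.2 FPKM at ZT12 (log2 fold change −1.08 ± 0.13, adjusted p = 0.0067). Wars, the tryptophanyl-tRNA synthetase, fell too (−0.84, adjusted p = 0.00494). Of 37 proteasome genes, 1 passed, Psmc2 (−0.37, adjusted p = 0.0318).

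Autophagy and lysosome genes gave 3 higher (1 to 3 without 1 library, fewest without ZT0 replicate 3, ZT12 replicate 2 or ZT12 replicate 3) and 3 lower (0 to 2 without 1 library, fewest without ZT12 replicate 2) of 28. Bnip3, a mitophagy receptor, had 43.6, 28.8 and 27.5 FPKM at ZT0 and 77.3, 69 and 82.2 FPKM at ZT12 (log2 fold change 1.19 ± 0.18, adjusted p = 0.0125). Ulk1, the initiating kinase, rose (0.45, adjusted p = 0.0343), while the cargo adaptor Sqstm1 (−0.40, adjusted p = 0.0322), Atg13 (−0.69, adjusted p = 0.0102) and the transcript 8430408G22Rik (−1.85, adjusted p = 0.0432) fell. In the citrate cycle list 3 of 22 were higher (1 to 3 without 1 library, fewest without ZT0 replicate 3, ZT12 replicate 2 or ZT12 replicate 3). The pyruvate dehydrogenase kinase Pdk2 rose (0.49, adjusted p = 0.0251), opposite to Pdk4. Cs (−0.35, adjusted p = 0.0615), Idh3a (0.04, adjusted p = 0.807) and Ogdh (0.27, adjusted p = 0.0807) did not pass.

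Of the transcription factors of hepatocytes, Cebpd (0.70, adjusted p = 0.032) and Hlf rose and Atf5 fell among 20. Foxa2 (0.53, adjusted p = 0.195), Cebpa (0.13, adjusted p = 0.436) and Cebpb (0.76, adjusted p = 0.0902) were not called. Klf13 was the single Krüppel-like factor of 11 to pass, with 2.67, 3.72 and 3.16 FPKM at ZT0 and 8.76, 9.96 and 11.4 FPKM at ZT12 (log2 fold change 1.401 ± 0.13, adjusted p = 0.00347). Klf10 (0.30, adjusted p = 0.663), Klf15 (0.09, adjusted p = 0.598) and Klf9 (0.22, adjusted p = 0.642) were not called. Of 16 pericentral genes Cyp2e1 rose and Lhpp (−0.78, adjusted p = 0.0281) and Oat (−0.48, adjusted p = 0.0413) fell, and of 15 periportal genes none passed (Cyp2f2 0.14, adjusted p = 0.741). In the interferon list Irf1 (−0.86, adjusted p = 0.0188) and Stat2 (−0.54, adjusted p = 0.0131) fell of 29, with Isg15 (−0.04, adjusted p = 0.944) and Irf7 (0.32, adjusted p = 0.207) not called. Among 19 cell cycle genes tested Rrm2 (1.08, adjusted p = 0.0102), Plk3 and Wee1 were higher (3 calls, and 2 to 3 without 1 library, fewest without ZT0 replicate 3 or ZT12 replicate 2) and Plk2 (−1.01, adjusted p = 0.0354) lower, and Cdkn1a was not called (−0.74, adjusted p = 0.323). Of 9 nuclear noncoding RNAs Snhg12 rose (0.73, adjusted p = 0.0251), and Neat1 (−0.25, adjusted p = 0.734) and Malat1 (0.33, adjusted p = 0.653) overlapped.

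The same hours were sampled in 6 other mice on the same diet, which received Libramed. Of the 1020 genes called in vehicle mice, 993 (97.4%) had a fold change of the same sign there, a comparison that shares no library with that of the vehicle mice. The interaction of time and treatment, fitted on all 12 libraries, gave an adjusted p under 0.05 for 0 genes in limma (smallest 0.337) and an unadjusted p under 0.05 for 650. Among the genes with the largest changes the fold changes in Libramed mice were 3.85 for Usp2, 3.13 for Upp2, 2.67 for Lpin1 and −2.37 for Sdf2l1. Some fold changes differed more in size, and some, Cish among them, differed in sign. Cish was −0.56 there against 2.93 with vehicle (limma interaction, adjusted p = 0.725). Phlda1 was −0.43 against 1.66 (adjusted p = 0.708) and Crybb3 0.46 against −1.52 (adjusted p = 0.519). Creld2 was −1.24 against −2.58 (adjusted p = 0.705) and Dbp 1.44 against 3.05 (adjusted p = 0.743). None of these differences passed the adjustment.

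Of the 288 genes chosen for naming, 154 were called. In 47 of them the call held under every alternative processing in which the gene was tested and without any 1 library. Arntl and Wee1 were not tested at a minimum of 5 FPKM, so that 9 alternatives bear on them, against 10 for the others. They include Usp2, Upp2, Ciart, Arntl, Per3 and Wee1 of the clock and its outputs, Sdf2l1, Creld2, Syvn1, Manf, Hspa5, Hsp90b1, Calr and Atf5 of folding and stress, and Tuba4a, Tubb5 and Tubb4b of the cytoskeleton. Of metabolism they include Lpin1, Alas1, Chka, Slc37a4, Slc2a2, Gys2, Insig2, Acsm5, Ces1d, Abcb11, Abcg5, Cbs, Agxt, Slc6a9, Cyp2a5, Por, Ces1g, Fmo1, Nr1i2, Slc30a10, Nampt, Nmrk1 and Afmid. Others were Spon2, Eif4ebp3, Eif1a, Wars and Klf13. Another 5, Ddit3, Gsta2, Csad, Papss2 and Rrm2, kept the call without any 1 library. The other 102 lost it in at least 1 of these fits. Lost were 94 without ZT12 replicate 2, 89 without ZT0 replicate 3, 83 without ZT12 replicate 3, 54 without ZT12 replicate 1, 34 without ZT0 replicate 1 and 26 without ZT0 replicate 2. No direction turned among the 154, which were selected by their call in these same libraries. No fold change of theirs moved by more than 1.5 times without 1 library.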

How the data were processed

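Liver RNA of 12 mice was sequenced as single-end reads of 100 cycles. The deposited values are FPKM (called RPKM in the study's methods), made by the authors with TopHat and Cuffnorm per the labels, while the study's methods name ELAND v2e and uniquely aligned reads; both name the mouse build mm10. The kit in the labels and the stranded protocol in the methods differ, so overlapping and antisense genes may share reads, and near-identical paralogs are uncertain. The table held 24138 lines, and 1 line was kept for each of 23849 symbols. Of the symbols tested, 185 name several genes. FPKM are not counts, so no count model was used and no whole reads could be recovered. Read depth is unknown, and the relative depth given was estimated from genes under 0.1 FPKM.

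For this comparison, log2(FPKM + 1) of the 6 vehicle libraries was fitted with limma 3.58.1 in R 4.3.3 (empirical Bayes with a mean-variance trend, two-sided, Benjamini-Hochberg over 9806 symbols with a mean of at least 1 FPKM in the 12 libraries). The interaction used all 12. The fit was tested on simulated data. Members and lists were chosen with earlier results of these data known. Named were the 10 highest and 10 lowest called fold changes without overlap between groups (leaving out symbols of several genes, microRNAs and small nucleolar RNAs), the key genes of each list, and up to 3 further called members of each. Labels do not say whether libraries of a group differ in batch. Alternatives were another pseudocount, other minima, no trend, a regularised test in the manner of Cyber-T (window of 101 genes, prior weight 10), other scalings, all libraries in 1 fit, the replicate number as a block and each library left out. Promoter sequences are from RefSeq (GRCm38.p6). No value column was left unmapped, and the Libramed libraries enter only where named. Some of the genes chosen by this rule are not reported here.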

Additional observations from a re-analysis of the deposited data

How the results depend on the processing

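Alternatives changed how many genes passed. No called gene among the 154 named ones turned its direction in any of them. These genes were selected by their call in the same libraries, so that a turn was unlikely from the start. Counts of genes higher and lower were 337 and 298 without a minimum FPKM, which adds genes to the adjustment. With the 12 libraries in one fit 734 genes were lower, and with a minimum mean of 5 FPKM, which tests fewer genes, 831 were lower at an unadjusted p under 0.05. Without 1 library there were 120 to 476 higher and 106 to 405 lower, with fewer samples in each fit. The share of called genes that were higher lay between 49.5% and 56.0%, against 54.0%, in the alternatives. In their deviations from group means, same-numbered mice of both times had r of −0.26, −0.030 and −0.197, and other pairs lay between −0.215 and 0.332. Centring on groups of 3 ties these values to each other, so that they cannot show whether the numbers stand for a shared batch. With the replicate number as a block, 138 genes were higher and 141 lower. Expression in FPKM carries no read depth, which limits what can be said of genes near 1 FPKM, and samples of 3 mice limit the rest.

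Medians of lists moved by more than 1 SD over the members' libraries as follows, and the cause was not tested. With a pseudocount of 0.1, those of clock activators and ATF4 targets were −0.73 and −0.79. With a minimum of 5 FPKM, which leaves fewer members, they were 0.36 for clock activators, 0.83 for PER and CRY repressors, 1.09 for REV-ERB and PAR bZIP factors, −0.70 for ATF4 targets, 0.081 for immediate early genes, 0.20 for insulin signalling, 0.19 for ketogenesis, 0.36 for fatty acid uptake, 0.17 for lipid droplets, 0.33 for one-carbon metabolism, 0.25 for KLF factors and −0.039 for pericentral genes. With quantile normalization they were 0.135 for glycogen, 0.39 for fatty acid uptake, 0.0012 for apolipoproteins, 0.31 for drug oxidases, −0.11 for translation, 0.024 for autophagy, −0.018 for the respiratory chain, 0.037 for secreted hormones and 0.030 for periportal genes. The sign changed for clock activators and immediate early genes with the minimum of 5 FPKM and for the respiratory chain with quantile normalization. Without 1 library, in clock and stress lists, the medians ranged from 0.19 to 0.651 for PER and CRY repressors, 1.16 to 1.57 for REV-ERB and PAR bZIP factors, −0.7 to −0.564 for ER chaperones and folding, −0.72 to −0.392 for ATF4 targets and 0.187 to 0.328 for cold-inducible RNA-binding proteins. In signalling, glycogen and uptake lists, the medians ranged from −0.326 to −0.0539 for immediate early genes, 0.286 to 0.687 for glucocorticoid-induced genes, 0.121 to 0.235 for glycogen metabolism, −0.00375 to 0.093 for insulin signalling and 0.392 to 0.544 for fatty acid uptake and activation. In lipid and amino acid lists, the medians ranged from 0.0367 to 0.275 for bile acid synthesis and transport, 0.0383 to 0.103 for apolipoproteins and lipoprotein remodelling, −0.129 to 0.0422 for phospholipid and sphingolipid synthesis, −0.151 to 0.0604 for urea cycle and amino acid catabolism and 0.0688 to 0.213 for amino acid transporters. From conjugation to secretion, the medians ranged from 0.231 to 0.46 for conjugating enzymes, 0.172 to 0.292 for one-carbon and purine synthesis, −0.0943 to −0.0246 for translation factors and tRNA synthetases, 0.037 to 0.102 for autophagy and lysosome and 0.0461 to 0.164 for secreted hepatic hormones. In the remaining lists, the medians ranged from −0.14 to −0.0608 for cell cycle, −0.0337 to 0.209 for interferon-stimulated genes and −0.241 to −0.146 for pericentral and Wnt targets.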

Other observations

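Outside the pathway lists, 103 called genes had a fold change of at least 1 in size, 59 higher and 44 lower at ZT12. Those described here were chosen after their values were seen. Among the lower ones, Alg12, a mannosyltransferase of the ER, had 13.2, 12.8 and 10.4 FPKM at ZT0 and 5.77, 4.96 and 3.97 FPKM at ZT12 (log2 fold change −1.16 ± 0.14, adjusted p = 0.00739). Tmed3, a cargo receptor, had 53.9, 42.2 and 43.02 FPKM at ZT0 and 18.3, 14.5 and 16.02 FPKM at ZT12 (log2 fold change −1.45 ± 0.13, adjusted p = 0.00324). Slc35b1, a nucleotide carrier of the ER, had 101.2, 87.1 and 85.4 FPKM at ZT0 and 44.3, 36.8 and 42.4 FPKM at ZT12 (log2 fold change −1.13 ± 0.11, adjusted p = 0.00353). Serpinh1, the collagen chaperone, fell as well (−1.24, adjusted p = 0.0102), as did Atp2a2, the calcium pump of the ER (−1.07, adjusted p = 0.0101). Elovl3, which elongates fatty acids, had 153, 379 and 479 FPKM at ZT0 and 63.3, 78.1 and 102 FPKM at ZT12, and ZT0 replicate 1 was far below the other morning mice (log2 fold change −1.91 ± 0.42, adjusted p = 0.0348). Clpx, a mitochondrial unfoldase, had 53.1, 82.3 and 89.5 FPKM at ZT0 and 22.9, 24.2 and 27.1 FPKM at ZT12 (log2 fold change −1.53 ± 0.19, adjusted p = 0.00803). Arrdc3, an arrestin-like adaptor, had 59.8, 40.3 and 35.5 FPKM at ZT0 and 17.1, 10.8 and 9.46 FPKM at ZT12 (log2 fold change −1.79 ± 0.26, adjusted p = 0.0108). Avpr1a, the vasopressin receptor of hepatocytes, had 16.5, 16.5 and 24.2 FPKM at ZT0 and 5.09, 6.94 and 8.63 FPKM at ZT12 (log2 fold change −1.35 ± 0.21, adjusted p = 0.0131).

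Among the higher ones, Inmt, a methyltransferase, had 407, 129 and 311 FPKM at ZT0 and 822, 1416 and 1118 FPKM at ZT12 (log2 fold change 2.10 ± 0.42, adjusted p = 0.0285). Hcn3, a cation channel, had 2.75, 1.498 and 2.91 FPKM at ZT0 and 16.9, 18.7 and 9.54 FPKM at ZT12 (log2 fold change 2.22 ± 0.27, adjusted p = 0.00739). Serpina6, the corticosteroid-binding globulin of plasma, had 164, 67.6 and 118 FPKM at ZT0 and 269, 357 and 363 FPKM at ZT12 (log2 fold change 1.57 ± 0.31, adjusted p = 0.0271). Nrg4, a growth factor of the neuregulin family, rose by 1.78, adjusted p = 0.00258, Pex11a, which divides peroxisomes, by 1.26, adjusted p = 0.0153, and Ucp2, a mitochondrial carrier, by 1.02, adjusted p = 0.00275. Tk1, a thymidine kinase, rose by 1.07, adjusted p = 0.0149.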
